A study of Mus musculus with 18 samples.

Results

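The genes described here are 8 mouse genes for histone acyltransferases that can transfer crotonyl groups: Ep300, Crebbp, Kat2a, Kat2b, Kat5, Kat7, Kat8 and Hat1. They were chosen by symbol for this activity, and all 8 were found in each deposited file, among 55335 listed genes. Their transcripts were measured in 18 libraries of early mouse embryos, each made from a tube of 5 to 10 embryos by Smart-seq2, which amplifies poly(A) RNA from an oligo-dT primer. One experiment set embryos with siRNA against Echs1 (siEchs1) beside embryos with control siRNA (siCon) at stages labelled L2C and E2C, 3 libraries for each of 4 combinations. The other gave sodium crotonate, sodium acetate or DMSO to zygotes labelled WT and sampled them at the early 2-cell stage (also E2C), 2 libraries for each of 3 treatments. Doses, strain and hour of collection are not in the labels, and L2C is not spelled out there.

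Histone crotonylation is the attachment of a crotonyl group, taken from crotonyl-CoA, to lysines of histones, and it is found at active promoters and enhancers. The enzymes that write it are the ones known as histone acetyltransferases, which also accept other short-chain acyl-CoAs. The paralogs p300 (Ep300) and CBP (Crebbp) are the most active crotonyltransferases known. GCN5 (Kat2a) and PCAF (Kat2b) are the GNAT enzymes of the SAGA and ATAC coactivator complexes. TIP60 (Kat5), HBO1 (Kat7) and MOF (Kat8) belong to the MYST family and work in complexes of their own, and Hat1 is the type B enzyme that acetylates newly made histone H4 before it is deposited in chromatin. Echs1 is the mitochondrial hydratase that consumes crotonyl-CoA.

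Values were FPKM, fragments per kilobase of exon scaled to the mapped fragments of the library, as the authors deposited them, and their sum over all genes lay between 708113 and 1123993 per library. The files give no depth, and the steps between low values did not recover it. Echs1 was at 0.89, 4.32 and 4.25 FPKM in siEchs1 L2C, against 38.6, 39.2 and 24.4 FPKM in siCon L2C, and at 0.71, 5.88 and 3.82 FPKM in siEchs1 E2C, against 30.5, 27.5 and 32.5 FPKM in siCon E2C, so the siRNA labels and the target went together in each library. Replicate 3 of siEchs1 E2C stood apart. Its Spearman correlation across genes with the other replicates of its group was 0.668 and 0.718, against 0.848 to 0.937 for every other pair of replicates. Mitochondrial transcripts took 10.3% of its FPKM, against 2.82% and 1.69% in replicates 1 and 2. Several results that rest on it are given with and without it. All 12 embryo and oocyte markers reached 1 FPKM in every group. The 9 cumulus and granulosa cell markers summed to 1.64 to 9.79 FPKM over all libraries and the 7 sperm markers to 5.30 to 72.2 FPKM. In the siRNA experiment the sperm sum was 5.30 to 19.8 FPKM at L2C and 28.4 to 72.2 FPKM at E2C. Prm2 was at 3.15 to 18.1 FPKM at L2C and 25.5 to 69.7 FPKM at E2C there. The sperm sum was 10.5 to 19.7 FPKM in the treatment libraries, which are also E2C. The 7 blood markers summed to 3.15 to 19.8 FPKM in the siEchs1 libraries and 64.0 to 134 FPKM in the siCon libraries, and the 6 oviduct markers to 4.43 to 37.0 FPKM in siEchs1 and 22.4 to 188 FPKM in siCon. Few genes carried the siCon sums: Hba-a1 was at 26.5 to 104 FPKM, Hba-a2 at 18.3 to 50.8 and Cd52 at 2.54 to 10.2. Hbb-bs, Hbb-bt, Ptprc and Alas2 stayed below 1 FPKM there. Of the oviduct markers in siCon, Epcam was at 20.5 to 177 FPKM, Krt18 at 28.7 or less, Foxj1 at 1.55 or less and Pax8 at 0. One blood marker was at 0 in each siEchs1 group and none in the siCon groups. Their part in the results below was not tested. Nothing in the labels says whether replicates are separate matings or cultures, so p-values cover the spread between these tubes alone, and that spread can be technical. In a tube of embryos, fewer cells of a kind and less RNA per cell cannot be told apart.

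All 8 genes are annotated as protein-coding in mm10, and all 8 identifiers and versions matched GENCODE M21. Ep300 (ENSMUSG00000055024.12) lies on chromosome 15 from 81585351 to 81652077, plus strand. Crebbp (ENSMUSG00000022521.10) lies on chromosome 16 from 4081328 to 4213997, minus strand. Both are long genes, with 30 merged exons each. Kat2a (ENSMUSG00000020918.14) and Kat7 (ENSMUSG00000038909.16) lie on the minus strand of chromosome 11, from 100704746 to 100712465 and from 95274259 to 95310246. Kat2b (ENSMUSG00000000708.14) lies on chromosome 17 from 53566861 to 53672720, plus strand. Kat5 (ENSMUSG00000024926.10) lies on chromosome 19 from 5603014 to 5610237, minus strand. Kat8 (ENSMUSG00000030801.10) lies on chromosome 7 from 127912516 to 127925837, plus strand, and Hat1 (ENSMUSG00000027018.11) on chromosome 2 from 71388958 to 71441622, plus strand. The deposited values keep no strand, and 12.1% of the Kat5 exon bases overlap exons of Rnaseh2c on the opposite strand, while 4.22% of those of Kat8 overlap Prss8, so reads in these stretches cannot be assigned. A processed copy, Kat2b-ps, can share reads with Kat2b, and the values of Kat2b are uncertain for that reason.

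The promoters of Kat2a, Kat7, Kat5 and Kat8 are shown, which are among the genes called with stage or siRNA below. Ep300, Kat2b and Hat1 were called as well. All 8 genes matched the RefSeq promoter table (GRCm38.p6), which holds 250 bases before each annotated start. Kat5 and Kat8 have a pair of windows each, of which the first is shown, for Kat5 its first 107 bases. The windows of Ep300, Crebbp, Kat2b and Hat1 are not shown. A short set of motifs was searched on both strands: the ETS-type CCGGAAG, the GC box GGGCGG, the CCAAT box CCAAT, the CRE-type TGACGT and the E-box CACGTG, and capitals mark their matches.
Kat2a, chr11:100712468-100712717, minus strand: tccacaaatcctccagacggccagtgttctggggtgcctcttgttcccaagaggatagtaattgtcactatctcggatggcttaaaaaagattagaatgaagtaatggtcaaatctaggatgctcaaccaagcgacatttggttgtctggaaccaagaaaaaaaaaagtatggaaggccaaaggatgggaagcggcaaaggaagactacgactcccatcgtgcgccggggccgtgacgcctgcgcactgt
Kat7, chr11:95310247-95310496, minus strand: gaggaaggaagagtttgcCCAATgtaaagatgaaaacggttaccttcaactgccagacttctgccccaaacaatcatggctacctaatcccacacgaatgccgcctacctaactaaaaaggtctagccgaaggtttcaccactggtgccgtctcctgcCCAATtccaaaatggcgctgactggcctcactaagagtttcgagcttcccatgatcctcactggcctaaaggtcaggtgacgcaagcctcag
Kat5, chr19:5610238-5610344, minus strand: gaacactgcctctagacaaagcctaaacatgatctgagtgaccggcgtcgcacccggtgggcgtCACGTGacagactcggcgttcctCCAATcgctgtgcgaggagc
Kat8, chr7:127912267-127912515, plus strand: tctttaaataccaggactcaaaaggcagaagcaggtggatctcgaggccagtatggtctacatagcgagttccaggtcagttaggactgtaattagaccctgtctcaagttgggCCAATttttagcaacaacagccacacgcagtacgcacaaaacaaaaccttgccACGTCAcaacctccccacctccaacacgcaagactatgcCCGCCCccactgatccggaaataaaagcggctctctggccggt

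The Kat7 window holds CCAAT at positions -232 and -92 before the start, and the Kat2a window holds none of these motifs. The Kat5 stretch holds an E-box at -186 and a CCAAT box at -163. The Kat8 window holds a CCAAT box at -136, a CRE-type match on the reverse strand (ACGTCA) at -83 and a GC box on the reverse strand (CCGCCC) at -44. These 4 windows have a GC content of 48.8% to 55.2% over 250 bases, against a median of 52.4% over all promoters, and 8 to 15 CpG, against a median of 6. Among the windows not shown, GC content was 67.6% for Hat1, 73.2% for Ep300 and 84.0% for Crebbp, which has 44 CpG, and 40.8% for the first window of Kat2b. Over any window of a gene, CCAAT occurred in 5 of the 8 genes (33.9% of 32851 promoters), the GC box in 5 (32.7%), the CRE-type letters in 2 (6.47%), the E-box in 2 (6.02%) and the ETS-type letters in 1, Hat1 (6.91%). A match describes the letters only.

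The 8 genes covered a wide range of levels, and their order differed between groups. In siEchs1 L2C, Kat8 at 165 ± 36.5 FPKM (SD, n = 3 for each value of the siRNA experiment) was highest, followed by Hat1 at 69.0 ± 4.76 FPKM and Kat7 at 39.1 ± 2.97 FPKM, with no overlap between these neighbours. Kat5 (32.0 ± 1.35 FPKM), Kat2a (27.2 ± 5.18) and Crebbp (17.9 ± 9.25) overlapped neighbour by neighbour, and Ep300 (2.01 ± 0.618) and Kat2b (0.407 ± 0.0808) were lowest. In siCon L2C, Kat7 at 47.2 ± 14.0 FPKM and Crebbp at 44.2 ± 8.73 FPKM were highest and overlapped. Kat8 at 29.3 ± 8.92 and Kat2a at 27.6 ± 4.83 FPKM followed and overlapped each other. Kat5 at 14.9 ± 3.86, Ep300 at 12.8 ± 2.34 and Hat1 at 10.2 ± 5.74 FPKM overlapped neighbour by neighbour, and Kat2b was last at 2.34 ± 0.931 FPKM. In siEchs1 E2C, Crebbp (131 ± 168 FPKM), Hat1 (109.9 ± 99.9), Kat8 (85.5 ± 70.8) and Kat7 (27.2 ± 7.56) overlapped, with SDs near or above the mean for the first 3. In siCon E2C, Crebbp led at 41.2 ± 3.68 FPKM, with no library overlapping the next gene. Hat1 (19.1 ± 3.37 FPKM), Kat8 (13.6 ± 4.32), Ep300 (10.4 ± 2.15) and Kat7 (10.3 ± 2.71) formed a run of overlapping neighbours. Kat2a (2.65 ± 0.554 FPKM), Kat5 (2.37 ± 0.779) and Kat2b (2.12 ± 1.53) were lowest. With crotonate Crebbp was first at 55.3 ± 8.53 FPKM (SD, n = 2), and with acetate Kat7, Crebbp and Hat1 overlapped at the top. With DMSO the first place was held by Kat7 at 47.0 ± 0.778 FPKM, ahead of Crebbp at 34.9 ± 1.20 FPKM, and Kat2b was again last at 1.33 ± 0.149 FPKM. Kat7 was far apart between DMSO and siCon E2C, groups of separate experiments that were not tested against each other. CBP was above its paralog p300 in all 18 libraries, by a ratio of 2.60 to 33.5 in FPKM.

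**Figure D1:**
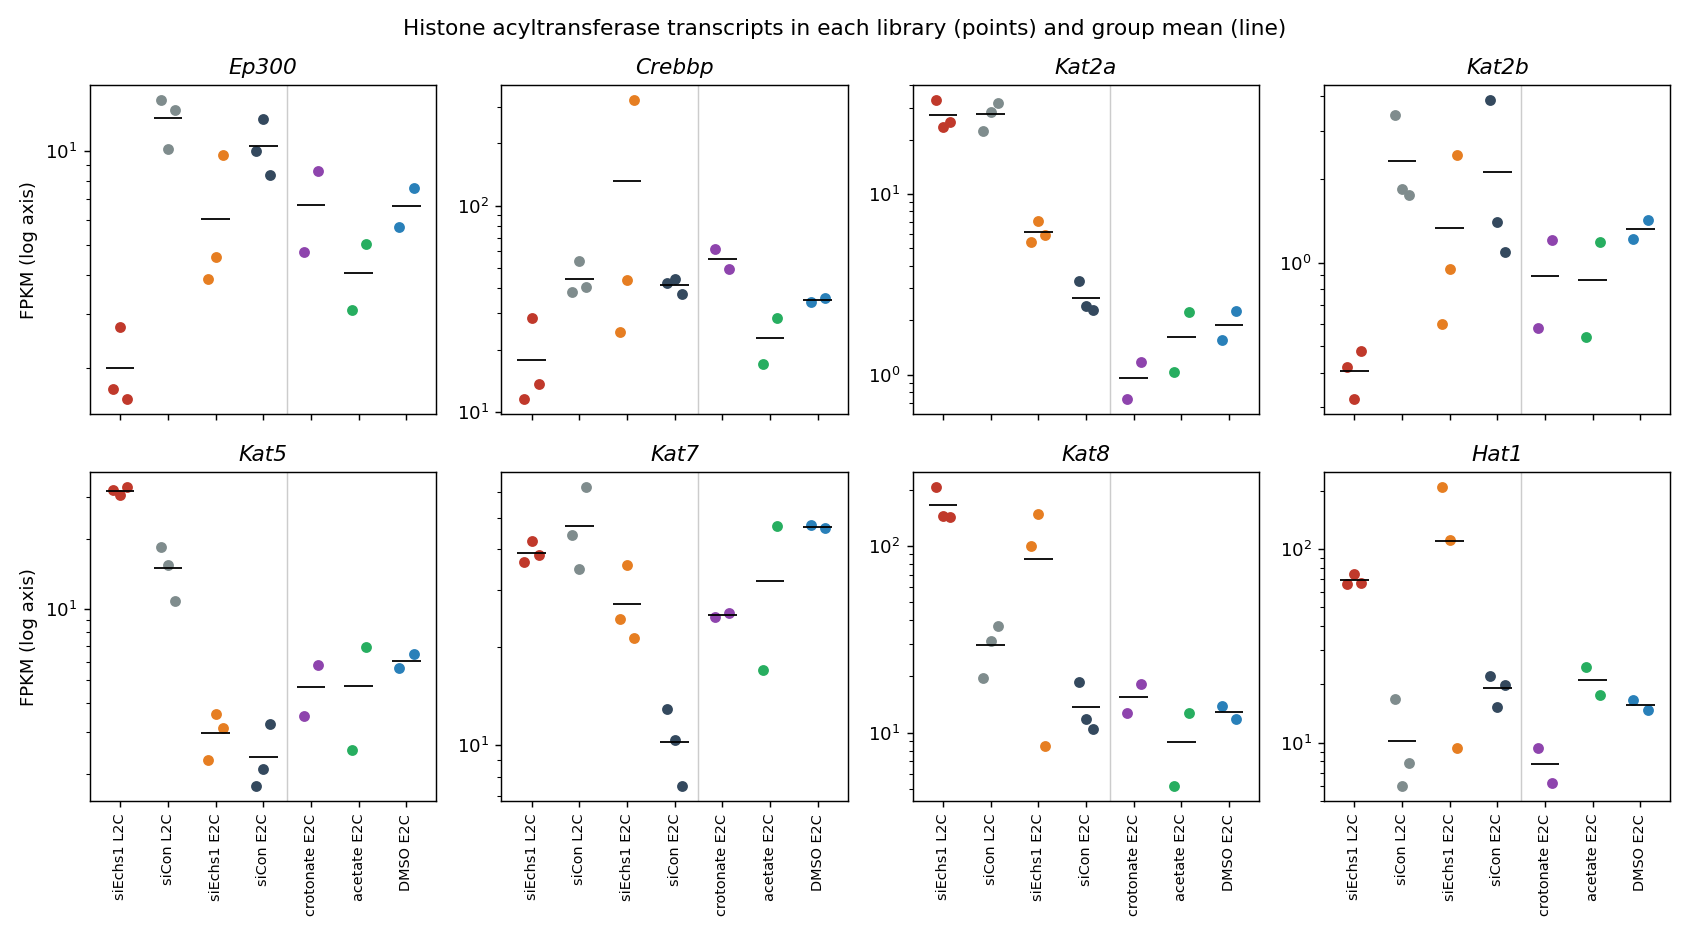
FPKM of each of the 8 genes on log axes in every library (points) with the group mean (line), for the siRNA groups left of the grey line and the treatment groups right of it. Ep300 and Kat2b were lowest and Kat5, Kat8 and Hat1 high in siEchs1 L2C, and 1 library of siEchs1 E2C was apart from the other two for Crebbp, Kat8 and Hat1.

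The siEchs1 and siCon embryos were first compared at L2C, where Spearman correlations between replicates were 0.861 to 0.937. Transcripts of the acyltransferases moved in both directions: Kat8, Hat1 and Kat5 rose, and Ep300 and Kat2b fell. Thus 5 of 8 genes were called at a limma adjusted p under 0.05, 3 higher and 2 lower. Over all 17652 genes tested 48.8% were called, 21.9% higher and 26.9% lower, so a count of this size is close to the background. Their median log2 fold change was -0.12, against -0.08 over all genes. All 8 passed the filter on low values in both experiments. Fold changes are differences of log2(FPKM + 1), which understates changes of low genes.

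Ep300, the p300 gene, was at 1.72, 2.72 and 1.59 FPKM in siEchs1 L2C, against 14.6, 10.1 and 13.6 FPKM in siCon L2C. Each siEchs1 library was below each siCon library, and Ep300 fell by 2.20 on the log2 scale (SE 0.36, adjusted p = 0.000427). This call held in all 20 alternative settings. Crebbp, the CBP gene, was at 11.5, 28.5 and 13.6 FPKM in siEchs1 L2C, against 38.0, 54.2 and 40.3 FPKM in siCon L2C. Its groups did not overlap either, but its log2 fold change of -1.35 (95% interval -2.90 to 0.20) missed the threshold (adjusted p = 0.137). The fit shares 1 estimate of spread over all 12 siRNA libraries, and without replicate 3 of siEchs1 E2C, where Crebbp reached 325 FPKM, the same difference passed (adjusted p = 0.00364). It also passed with the L2C libraries alone (adjusted p = 0.00835). The ratio of Crebbp to Ep300 was 6.68 to 10.5 in siEchs1 L2C and 2.60 to 5.35 in siCon L2C.

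Of the GNAT paralogs, Kat2b fell and Kat2a was not called. Kat2a (GCN5) was at 33.1, 23.6 and 24.9 FPKM in siEchs1 L2C, against 22.4, 28.4 and 31.9 FPKM in siCon L2C. The groups overlapped throughout, and the log2 fold change was -0.02 (95% interval -0.65 to 0.61, adjusted p = 0.961). Kat2b (PCAF) was at 0.42, 0.32 and 0.48 FPKM in siEchs1 L2C, against 3.41, 1.85 and 1.75 FPKM in siCon L2C. All siEchs1 libraries were below all siCon libraries and below 1 FPKM, and Kat2b fell by 1.21 (SE 0.39, adjusted p = 0.0210). The call ended with quantile normalization (adjusted p = 0.0745) and without replicate 1 of siCon L2C (0.0817) or replicate 1 (0.05) or 2 (0.0621) of siEchs1 L2C. Kat2b-ps, the processed copy, was at 0.94 to 1.92 FPKM in siEchs1 L2C and 13.5 to 27.7 FPKM in siCon L2C, and its part in the Kat2b values was not tested.

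Among the MYST genes, Kat8 (MOF, the enzyme of H4 lysine acetylation in the MSL and NSL complexes) was at 207, 145 and 143 FPKM in siEchs1 L2C, against 19.7, 30.9 and 37.3 FPKM in siCon L2C. The lowest siEchs1 library was far above the highest siCon library, and Kat8 rose by 2.48 (SE 0.77, adjusted p = 0.0186). The call ended without replicate 1 of siCon L2C (2.23, adjusted p = 0.0639) or of siEchs1 L2C (2.30, 0.0589). Among protein-coding genes at 1 FPKM or more in a library, Kat8 had a median percentile of 92.4 in siEchs1 L2C and 72.3 in siCon L2C. Kat5 (TIP60) was at 32.3, 30.5 and 33.2 FPKM in siEchs1 L2C, against 18.5, 15.5 and 10.8 FPKM in siCon L2C. The groups did not overlap, and Kat5 rose by 1.08 (SE 0.31, adjusted p = 0.0122), a call that held in all 20 alternatives. Rnaseh2c, which overlaps Kat5 exons, spanned 1.65 to 33.7 FPKM over all libraries, and its share of the Kat5 reads was not tested. Kat7 (HBO1) was at 36.6, 42.4 and 38.4 FPKM in siEchs1 L2C, against 44.5, 34.8 and 62.3 FPKM in siCon L2C. These overlapped, with a log2 fold change of -0.23 (95% interval -0.93 to 0.48, adjusted p = 0.589).

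Hat1 was at 65.7, 74.4 and 66.7 FPKM in siEchs1 L2C, against 16.7, 5.95 and 7.87 FPKM in siCon L2C. The siEchs1 libraries lay close together and all above the siCon libraries, and Hat1 rose by 2.76 (SE 0.82, adjusted p = 0.0146). The call ended without replicate 2 of siCon L2C (2.48, adjusted p = 0.0539). Without replicate 3 of siEchs1 E2C the same Hat1 difference had SE 0.35 (adjusted p = 2.32e-05). Transcripts typical of oocytes moved with these changes: the summed level of 6 oocyte markers (Zp1, Zp2, Zp3, Gdf9, Bmp15 and Mos) was 9785 to 14673 FPKM in siEchs1 L2C and 564 to 802 FPKM in siCon L2C. Summed markers of the 2-cell stage, 5 genes with Zscan4d and Zfp352 among them, were at 60.9 to 129 FPKM in siEchs1 L2C and 721 to 1033 FPKM in siCon L2C. One of these markers, Usp17le, overlapped, at 0.48 to 6.41 FPKM in siEchs1 L2C and 3.76 to 15.15 FPKM in siCon L2C. Mitochondrial RNA took 0.831% to 2.27% of FPKM in siEchs1 L2C and 7.58% to 11.2% in siCon L2C. None of the oocyte and 2-cell markers was at 0 in either group, and the part of these measures in the acyltransferase changes was not tested.

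**Figure D2:**
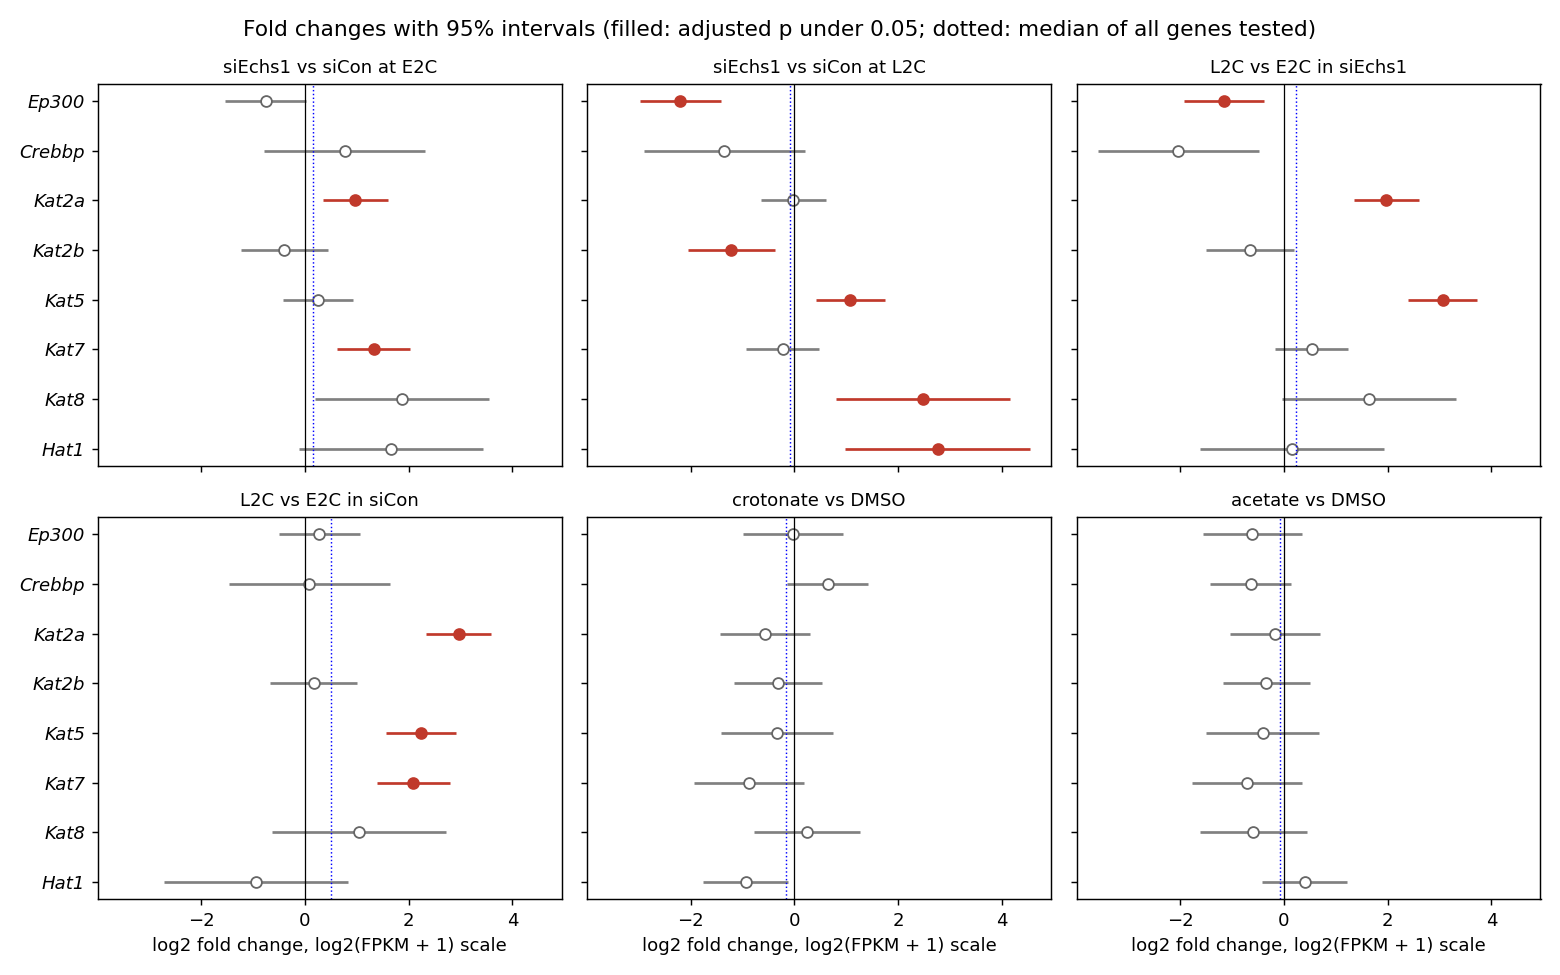
Log2 fold changes of the 8 genes (points) with 95% intervals (lines) in 6 comparisons on the log2(FPKM + 1) scale, filled where the limma adjusted p was under 0.05, with the median of all genes tested dotted in blue. At L2C with siEchs1, Ep300 (-2.20) and Kat2b (-1.21) lie left of zero and Kat5 (1.08), Kat8 (2.48) and Hat1 (2.76) right of it, while no gene is filled in the treatment panels.

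At E2C, siEchs1 embryos had higher Kat7 and Kat2a than siCon embryos, and the other 6 genes were not called. Over all genes tested 20.3% were called, 11.0% higher and 9.31% lower, against 2 of 8 here, both higher. The median log2 fold change was 0.87 over the 8 genes and 0.15 over all genes. Of all calls 54.1% were higher, and 69.3% when values were rescaled without mitochondrial and ribosomal RNA. The share was 47.4% with quantile normalization, 47.0% with no filter on low values and 45.05% with the E2C libraries alone. Kat7 was at 24.5, 35.8 and 21.4 FPKM in siEchs1 E2C, against 12.9, 10.4 and 7.48 FPKM in siCon E2C. The groups did not overlap, and Kat7 rose by 1.32 (SE 0.33, adjusted p = 0.0147). This call was lost when replicate 3 of siCon E2C (1.13, adjusted p = 0.0748) or replicate 2 of siEchs1 E2C (1.12, 0.0632) was left out, and with the E2C libraries alone (0.0575).

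Kat2a was at 5.45, 7.08 and 5.90 FPKM in siEchs1 E2C, against 3.29, 2.39 and 2.28 FPKM in siCon E2C. Every siEchs1 library was above every siCon library, and Kat2a rose by 0.97 (SE 0.29, adjusted p = 0.0331). This call held in 11 of 20 alternatives. It was lost when any replicate of siCon E2C (adjusted p = 0.0545, 0.107 and 0.118) or replicate 2 of siEchs1 E2C (0.108) was left out, and also with quantile normalization (0.0583), with no filter on low values (0.0579) and with the E2C libraries alone (0.0924). Kat5 was at 2.29, 3.58 and 3.12 FPKM in siEchs1 E2C, against 1.77, 2.09 and 3.25 FPKM in siCon E2C. These overlapped, with a log2 fold change of 0.26 (95% interval -0.42 to 0.93).

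For the other 5 genes, replicate 3 of siEchs1 E2C lay apart from replicates 1 and 2. Kat8 was at 100.2, 148 and 8.49 FPKM in siEchs1 E2C, against 18.6, 11.9 and 10.5 FPKM in siCon E2C. Replicates 1 and 2 were far above every siCon library and replicate 3 below all of them, and the log2 fold change was 1.88 (95% interval 0.20 to 3.55, adjusted p = 0.105). Hat1 was at 209, 111 and 9.42 FPKM in siEchs1 E2C, against 22.0, 15.4 and 19.8 FPKM in siCon E2C, with the same split and a log2 fold change of 1.66 (95% interval -0.12 to 3.44, adjusted p = 0.173). Crebbp was at 24.3, 43.5 and 325 FPKM in siEchs1 E2C, against 42.1, 44.3 and 37.1 FPKM in siCon E2C. Here replicate 3 was the high one, and the log2 fold change was 0.77 (95% interval -0.78 to 2.32, adjusted p = 0.482). Without replicate 3 of siEchs1 E2C the Crebbp value was -0.32 (adjusted p = 0.538). Ep300 was at 3.88, 4.57 and 9.70 FPKM in siEchs1 E2C, against 10.0, 12.7 and 8.40 FPKM in siCon E2C, with a log2 fold change of -0.76 (95% interval -1.54 to 0.02, adjusted p = 0.152). Replicate 3 lay within the siCon range and the others below it. Kat2b was at 0.60, 0.95 and 2.45 FPKM in siEchs1 E2C, against 3.88, 1.40 and 1.09 FPKM in siCon E2C, and these overlapped (adjusted p = 0.508).

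Without replicate 3 of siEchs1 E2C, 5 of 8 genes were called at E2C, where 37.2% of 17444 genes were, 23.2% higher and 14.0% lower. Kat8 rose by 3.11 (adjusted p = 2.32e-05), Hat1 by 2.95 (8.25e-05), Kat7 by 1.47 (0.00303) and Kat2a by 0.99 (0.0187), and Ep300 fell by 1.11 (0.0147). That library also stood apart in the summed oocyte markers, at 1343 FPKM, against 8588 and 12481 FPKM in replicates 1 and 2 of siEchs1 E2C and 1039 to 1320 FPKM in siCon E2C. Bmp15 and Zp3 overlapped between siEchs1 E2C (883 to 1342 and 35.9 to 3622 FPKM) and siCon E2C (768 to 1018 and 28.0 to 36.7 FPKM). Zp1, Zp2, Gdf9 and Mos did not, with every siEchs1 E2C library, replicate 3 included, above every siCon E2C library. The 2-cell markers of replicate 3, at 378 FPKM, were below the 860 to 1121 FPKM of siCon E2C, as in the other siEchs1 libraries (226 and 314 FPKM). Of these markers Usp17le overlapped, at 1.67 to 15.55 FPKM in siEchs1 E2C and 1.88 to 5.37 FPKM in siCon E2C. Mitochondrial RNA, at 1.69% to 10.3% of FPKM in siEchs1 E2C and 13.1% to 17.0% in siCon E2C, moved with the siRNA as well. The part of these measures in the acyltransferase values was not tested. With values rescaled without mitochondrial and ribosomal RNA, Kat8 passed at E2C with all libraries (2.12, adjusted p = 0.0465).

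**Figure D3:**
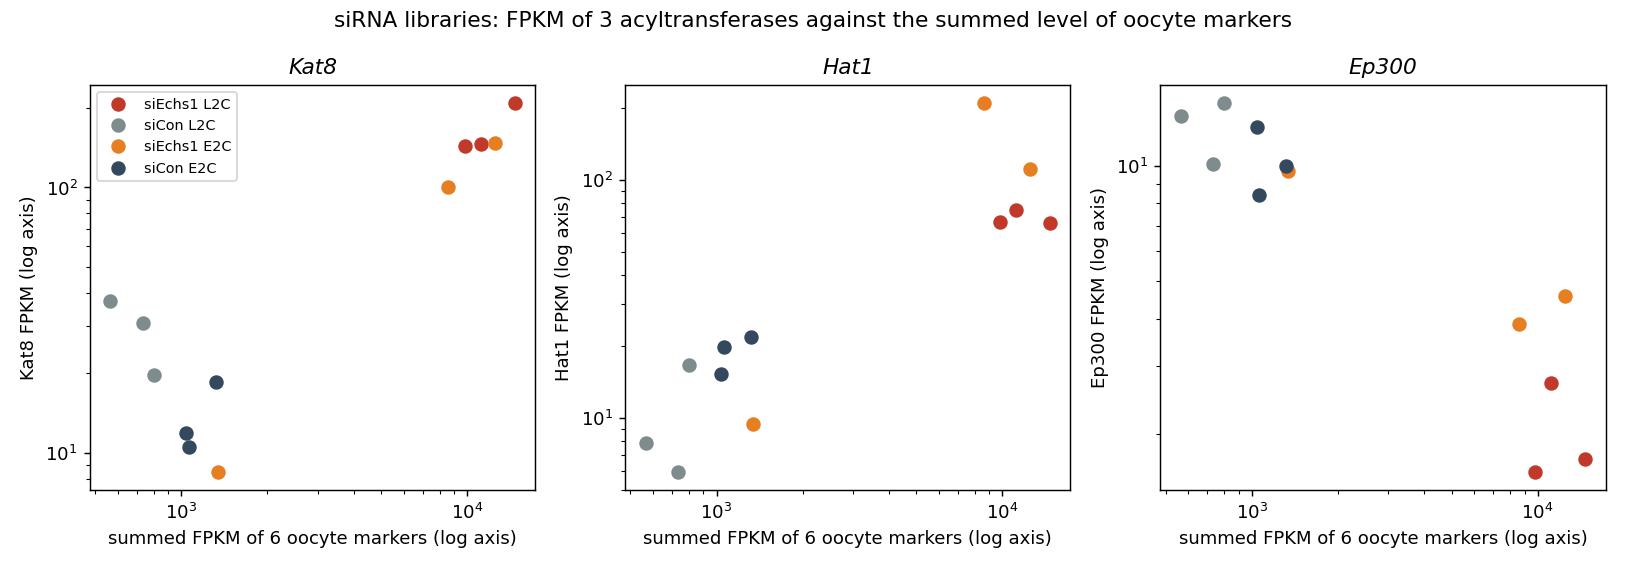
FPKM of Kat8, Hat1 and Ep300 against the summed FPKM of 6 oocyte markers in the 12 siRNA libraries, on log axes, with a colour for each group. The 5 siEchs1 libraries with marker sums of 8588 FPKM or more have Kat8 of 100.2 FPKM or more and Ep300 of 4.57 FPKM or less, and replicate 3 of siEchs1 E2C, at 1343 FPKM, lies beside the siCon libraries.

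The difference between the siRNA effects at L2C and at E2C was tested as an interaction in the same fit. One of the 8 genes passed, Kat7, where 17.2% of all genes did, 5.65% positive and 11.6% negative. Its log2 fold change between siEchs1 and siCon was lower at L2C than at E2C by 1.55 (log2 difference -1.55, SE 0.46, adjusted p = 0.0376). Kat7 averaged 39.1 ± 2.97 FPKM in siEchs1 L2C and 47.2 ± 14.0 FPKM in siCon L2C, and 27.2 ± 7.56 FPKM in siEchs1 E2C and 10.3 ± 2.71 FPKM in siCon E2C. The call held in 7 of 19 alternatives. It was lost without replicates 2 or 3 of siCon E2C (adjusted p = 0.0753 and 0.104), replicate 2 of siEchs1 E2C (0.0741), replicates 1 or 3 of siCon L2C (0.0697 and 0.0806) or any replicate of siEchs1 L2C (0.0706, 0.0658 and 0.0873), with quantile normalization (0.0604) and with no filter on low values (0.0743). For Ep300 the interaction was -1.44 (95% interval -2.53 to -0.34, adjusted p = 0.0683), and it passed without replicate 1 of siEchs1 E2C (-1.66, 0.0376), as did Crebbp (-2.87, 0.0364). That setting keeps replicate 3, where Crebbp was at 325 FPKM. For Crebbp the interaction was -2.12 (adjusted p = 0.162) with all libraries and -1.025 (0.157) without replicate 3 of siEchs1 E2C. Kat8 (0.60, 95% interval -1.77 to 2.97) and Hat1 (1.11, -1.41 to 3.62) had wide intervals, and without replicate 3 of siEchs1 E2C both values were negative (-0.63 and -0.19). Of all interaction calls 32.8% were positive, and 50.7% with quantile normalization.

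The stages were then compared within each siRNA. In siCon embryos, Kat2a, Kat5 and Kat7 rose at L2C over E2C, and the other 5 genes were not called. Over all genes 50.2% were called, 35.8% higher and 14.4% lower. Kat2a averaged 27.6 ± 4.83 FPKM in siCon L2C and 2.65 ± 0.554 FPKM in siCon E2C, and rose by 2.96 (SE 0.29, adjusted p = 1.15e-05). Kat5 averaged 14.9 ± 3.86 FPKM in siCon L2C and 2.37 ± 0.779 FPKM in siCon E2C, and rose by 2.24 (SE 0.31, adjusted p = 0.000105). Kat7 averaged 47.2 ± 14.0 FPKM in siCon L2C and 10.3 ± 2.71 FPKM in siCon E2C, and rose by 2.09 (SE 0.33, adjusted p = 0.000238). For all 3 genes every L2C library was above every E2C library, and each call held in all 20 alternatives.

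The scaling shifts this comparison as a whole. The median log2 fold change over all genes was 0.51 with the deposited scaling, -0.01 with quantile normalization and 0.75 after rescaling, and the share of higher calls was 71.3%, against 49.7% with quantile normalization. With quantile normalization Kat2a rose by 2.37, Kat5 by 1.62 and Kat7 by 1.47. The levels of Ep300 (12.8 ± 2.34 FPKM in siCon L2C and 10.4 ± 2.15 in siCon E2C) and Crebbp (44.2 ± 8.73 and 41.2 ± 3.68 FPKM) overlapped between stages, with log2 fold changes of 0.28 (95% interval -0.50 to 1.06) and 0.09 (-1.47 to 1.64) that turned negative with quantile normalization (-0.47 and -0.42). Kat2b overlapped as well (0.17, adjusted p = 0.747). Kat8 was higher in each L2C than in each E2C library of siCon (1.04, adjusted p = 0.281), and Hat1 averaged 10.2 ± 5.74 FPKM in siCon L2C and 19.1 ± 3.37 FPKM in siCon E2C (-0.95, adjusted p = 0.359). With replicate 3 of siEchs1 E2C left out both passed (adjusted p = 0.0102 and 0.0304), and also with the siCon libraries alone (0.0156 and 0.0400), Kat8 higher and Hat1 lower.

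In siEchs1 embryos Kat5 and Kat2a rose at L2C over E2C, and Ep300 fell. Of all genes 14.6% were called, 11.8% higher and 2.73% lower, and 81.3% of the calls were higher, against 57.8% with quantile normalization. Kat5 averaged 32.0 ± 1.35 FPKM in siEchs1 L2C and 3.00 ± 0.654 FPKM in siEchs1 E2C, and rose by 3.06 (SE 0.31, adjusted p = 0.000169). Kat2a averaged 27.2 ± 5.18 FPKM in siEchs1 L2C and 6.14 ± 0.842 FPKM in siEchs1 E2C, and rose by 1.97 (SE 0.29, adjusted p = 0.00126). Both calls held in all 20 alternatives. Ep300 averaged 2.01 ± 0.618 FPKM in siEchs1 L2C and 6.05 ± 3.18 FPKM in siEchs1 E2C, and fell by 1.16 (adjusted p = 0.0475). That call held in 4 of 20 alternatives and ended without any one of the 12 libraries except replicate 1 of siEchs1 E2C, with adjusted p from 0.0525 to 0.144. Kat7 averaged 39.1 ± 2.97 FPKM in siEchs1 L2C and 27.2 ± 7.56 FPKM in siEchs1 E2C (0.54, adjusted p = 0.321). Crebbp (-2.03, adjusted p = 0.0780) and Kat8 (1.65, 0.187) overlapped between stages, as did Hat1 (0.16, 0.933). Crebbp passed without replicate 1 of siEchs1 E2C (-2.78, 0.0202), a fit that kept replicate 3, where it reached 325 FPKM. With replicate 3 left out instead, the log2 fold changes were -0.94 for Crebbp (adjusted p = 0.0975), 0.42 for Kat8 (0.448) and -1.135 for Hat1 (0.0558). None of these passed. Kat2b was lower in every L2C than in every E2C library of siEchs1 (-0.65, 0.312).

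The make-up of the summed 8 genes also differed between the groups. The scale here is the sum of FPKM, which is corrected for gene length. The 8 genes summed to 322 to 389 FPKM in siEchs1 L2C and 178 to 206 FPKM in siCon L2C, and to 354 to 386 FPKM in siEchs1 E2C and 89.9 to 114 FPKM in siCon E2C. The groups did not overlap at either stage. Kat8 alone made up 41.8% to 53.3% of the sum in siEchs1 L2C and 11.1% to 18.1% in siCon L2C. Ep300 and Crebbp together made up 3.40% to 8.96% in siEchs1 L2C and 26.2% to 35.4% in siCon L2C. In siEchs1 E2C that share was 7.62% to 86.8%, with the highest value in replicate 3, and in siCon E2C it was 45.5% to 56.7%. Hat1 made up 16.9% to 21.4% in siEchs1 L2C, and 3.27% to 9.40% in siCon L2C. In the treatment experiment Ep300 and Crebbp made up 49.9% to 56.0% in crotonate, 27.6% to 28.3% in acetate and 31.5% to 34.3% in DMSO.

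**Figure D4:**
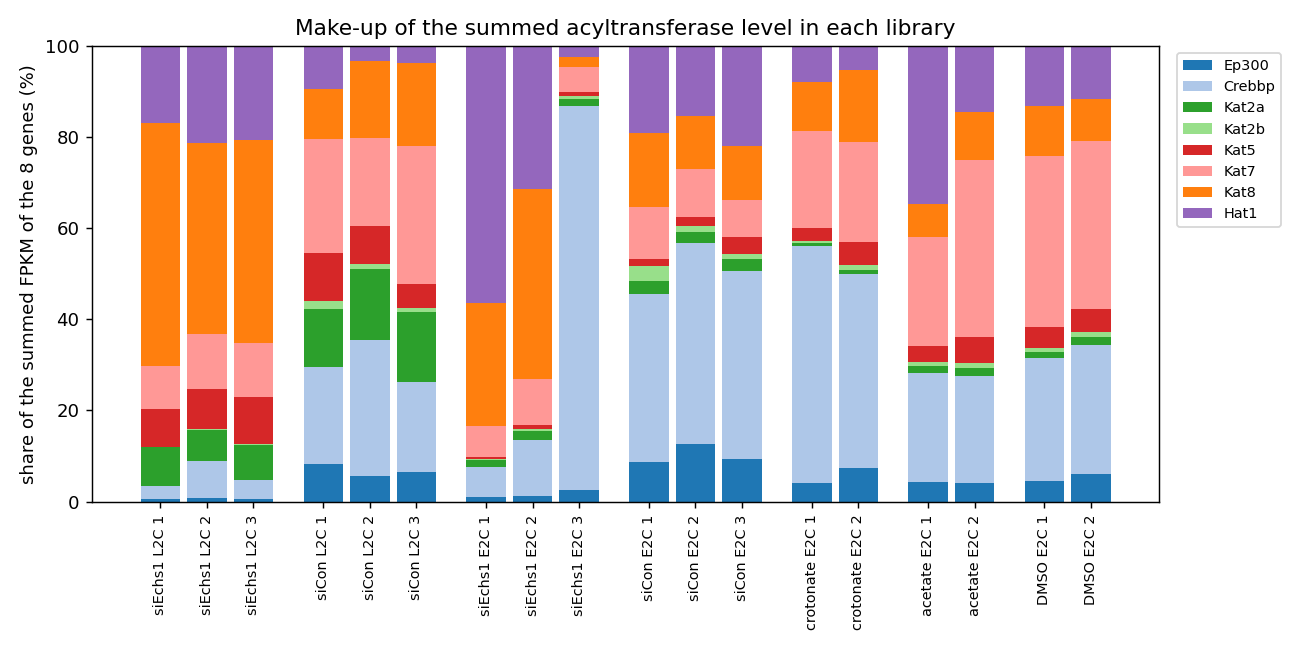
Share (%) of each of the 8 genes in their summed FPKM, 1 stacked bar for each of the 18 libraries, grouped by siRNA and stage or by treatment. Kat8 and Hat1 fill most of the bars of siEchs1 L2C and of replicates 1 and 2 of siEchs1 E2C, and Crebbp fills most of replicate 3.

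These enzymes act with partners, and 7 lists of partner and complex genes were counted beside them, with a few genes in more than 1 list. Of 109 distinct genes tested in the siRNA experiment, 19 rose and 37 fell with siEchs1 at L2C (17.4% and 33.9%, against 21.9% and 26.9% of all genes). At E2C 16 rose and 4 fell (14.7% and 3.67%, against 11.0% and 9.31%). Between stages in siCon 55 rose and 14 fell (50.5% and 12.8%, against 35.8% and 14.4%), and in siEchs1 18 rose and 5 fell (16.5% and 4.59%, against 11.8% and 2.73%). The interaction was called positive in 2 and negative in 20 of the 109 (1.83% and 18.3%, against 5.65% and 11.6%), with negative calls in 6 of the 7 lists. These shares describe the lists and were given no test of their own.

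Among 20 tested partners of CBP and p300, 3 rose and 7 fell at L2C with siEchs1 (median log2 fold change -0.68, against -0.08 over all genes). Atf1, a CREB-family transcription factor, averaged 57.5 ± 9.89 FPKM in siEchs1 L2C and 336 ± 89.7 FPKM in siCon L2C, and fell by 2.51 (adjusted p = 0.000848). Cited2, which binds p300 and CBP, averaged 95.2 ± 8.73 FPKM in siEchs1 L2C and 18.0 ± 12.7 FPKM in siCon L2C, and rose by 2.64 (adjusted p = 0.000961). At E2C 1 partner rose and 2 fell, Atf1 by 1.95 and the CREB coactivator Crtc3 by 1.83 (adjusted p = 0.0116 and 0.0371). In siCon 10 partners rose with stage and 1 fell, with the histone chaperone gene Nap1l4 at 152 ± 7.80 FPKM in L2C and 44.9 ± 4.79 FPKM in E2C.

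Of 29 genes of the SAGA and ATAC complexes, which hold Kat2a or Kat2b, 6 rose and 5 fell with siEchs1 at L2C (median 0.19) and 4 rose and 1 fell at E2C (median 0.76). Kat14, itself an acetyltransferase of ATAC, was at 83.5, 191 and 55.5 FPKM in siEchs1 E2C, and at 12.1 to 23.6 FPKM in siCon E2C, and rose by 2.35 (adjusted p = 0.00392). At L2C it rose by 2.10 (adjusted p = 0.00221). Dr1, a subunit of ATAC, averaged 11.4 ± 2.84 FPKM in siEchs1 L2C and 77.5 ± 22.4 FPKM in siCon L2C, and fell by 2.65 (adjusted p = 9.33e-05). Atxn7l2, of the SAGA deubiquitinase module, averaged 12.8 ± 3.96 FPKM in siEchs1 L2C and 1.35 ± 0.506 FPKM in siCon L2C. In siCon 13 of the 29 rose with stage, as Kat2a did, and 3 fell. Taf5l, a SAGA subunit, was at 29.9 ± 6.42 FPKM in siCon L2C and 2.04 ± 0.786 FPKM in siCon E2C, while Eny2, of the deubiquitinase module, fell by 3.37 (240.1 ± 25.5 FPKM in siCon L2C and 2559 ± 730.4 FPKM in siCon E2C).

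Of 18 genes listed for the TIP60 complex of Kat5, 3 rose and 5 fell with siEchs1 at L2C (median 0.10) and 5 rose and 0 fell at E2C (median 0.00). The list also holds Srcap, the ATPase of the related SRCAP complex and no subunit of TIP60, which is one of the 5 that fell (-3.22, adjusted p = 0.000737). Dmap1 averaged 136 ± 18.8 FPKM in siEchs1 L2C and 5.01 ± 1.71 FPKM in siCon L2C, a rise of 4.54 (adjusted p = 0.000248). Mrgbp averaged 52.2 ± 10.7 FPKM in siEchs1 L2C and 2.03 ± 0.535 FPKM in siCon L2C, a rise of 4.13 (adjusted p = 5.65e-05). At E2C the ATPase gene Ruvbl2 averaged 59.9 ± 20.1 FPKM in siEchs1 and 11.6 ± 2.35 FPKM in siCon, a rise of 2.23 (adjusted p = 0.000878). Dmap1 rose by 3.34 at E2C (adjusted p = 0.00536), with replicate 3 of siEchs1 low, at 10.9 FPKM. In siCon 6 rose with stage, Srcap (3.98) among them, and 3 fell.

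Of 11 genes listed for the HBO1 complexes of Kat7, 1 rose and 6 fell with siEchs1 at L2C, with a median log2 fold change of -1.56, while Kat7 itself was not called. The list also holds Ing1 and Ing2, known as subunits of Sin3 deacetylase complexes, neither of which was called at L2C (0.13 and 0.47). Brpf1, a scaffold subunit, averaged 3.81 ± 1.48 FPKM in siEchs1 L2C and 20.7 ± 2.54 FPKM in siCon L2C, and fell by 2.22 (adjusted p = 0.000697). Jade3, another scaffold, averaged 0.797 ± 0.403 FPKM in siEchs1 L2C and 8.96 ± 2.02 FPKM in siCon L2C, and fell by 2.48 (adjusted p = 0.000436). At E2C 1 rose, Jade2 by 1.15 (adjusted p = 0.0473), and 0 fell. The interaction was called in 5 of the 11, all negative, where 11.6% of all genes were negative. In siCon 8 of the 11 rose with stage, Ing1 (1.39) and Ing2 (1.37) among them, and 1 fell. Brpf1 averaged 20.7 ± 2.54 FPKM in siCon L2C and 1.78 ± 0.215 FPKM in siCon E2C, a rise of 2.96.

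Of 12 genes of the MSL and NSL complexes, which hold Kat8, 1 rose and 5 fell with siEchs1 at L2C (median -0.40), where Kat8 rose. Kansl1, the NSL scaffold, averaged 7.88 ± 0.907 FPKM in siEchs1 L2C and 28.0 ± 4.55 FPKM in siCon L2C, and fell by 1.70 (adjusted p = 0.000471). Phf20, an NSL subunit that reads methylated lysine, averaged 281 ± 52.1 FPKM in siEchs1 L2C and 118 ± 21.2 FPKM in siCon L2C, and rose by 1.25 (adjusted p = 0.00339). At E2C 1 rose, Mcrs1 by 1.17 (adjusted p = 0.0175), and 0 fell. In siCon 8 of the 12 rose with stage, Mcrs1 by 2.52 and Kansl1 by 1.99, and 2 fell.

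Of 8 genes of the HAT1 complex and the H3-H4 chaperones, 4 rose and 2 fell with siEchs1 at L2C (median 0.67). Rbbp7, the WD40 partner of Hat1, averaged 621 ± 73.3 FPKM in siEchs1 L2C and 188 ± 29.8 FPKM in siCon L2C, and rose by 1.72 (adjusted p = 0.000992). The chaperone gene Asf1a averaged 302 ± 45.7 FPKM in siEchs1 L2C and 88.3 ± 19.5 FPKM in siCon L2C, and rose by 1.77 (adjusted p = 0.000833). At E2C 3 rose and 0 fell, with Chaf1a of the CAF-1 chaperone up by 1.76 and Rbbp4 by 1.56 (adjusted p = 0.00244 and 0.00719). In siCon 4 rose with stage and 3 fell, with Rbbp4 at 53.0 ± 12.1 FPKM in L2C and 7.81 ± 1.46 FPKM in E2C.

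Of 17 other acetyltransferase genes, which are not counted as crotonyltransferases here, 2 rose and 9 fell with siEchs1 at L2C (median -1.09). Gtf3c4, a TFIIIC subunit, fell by 3.26 (adjusted p = 5.93e-05) and Atf2 by 2.65 (0.000473). The MYST genes Kat6a and Kat6b fell by 1.63 and 1.09 (adjusted p = 0.0258 and 0.0185), so of the 5 MYST genes of the mouse 2 rose and 2 fell at L2C. At E2C 3 rose and 1 fell, with Naa40, which acetylates the amino terminus of histones H4 and H2A, up by 1.91 (adjusted p = 0.00397). Without replicate 3 of siEchs1 E2C the calls at E2C grew over all genes, to 23.2% higher and 14.0% lower. In that fit 11 of 29 SAGA and ATAC genes rose and 3 fell. The TIP60 list had 6 up and 3 down of 18, and the HAT1 list 5 and 0 of 8. The CBP and p300 partners had 5 up and 3 down of 20, and the HBO1 list 1 and 1 of 11. The MSL and NSL list had 2 up and 1 down of 12, and the other acetyltransferases 3 and 4 of 17.

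**Figure D5:**
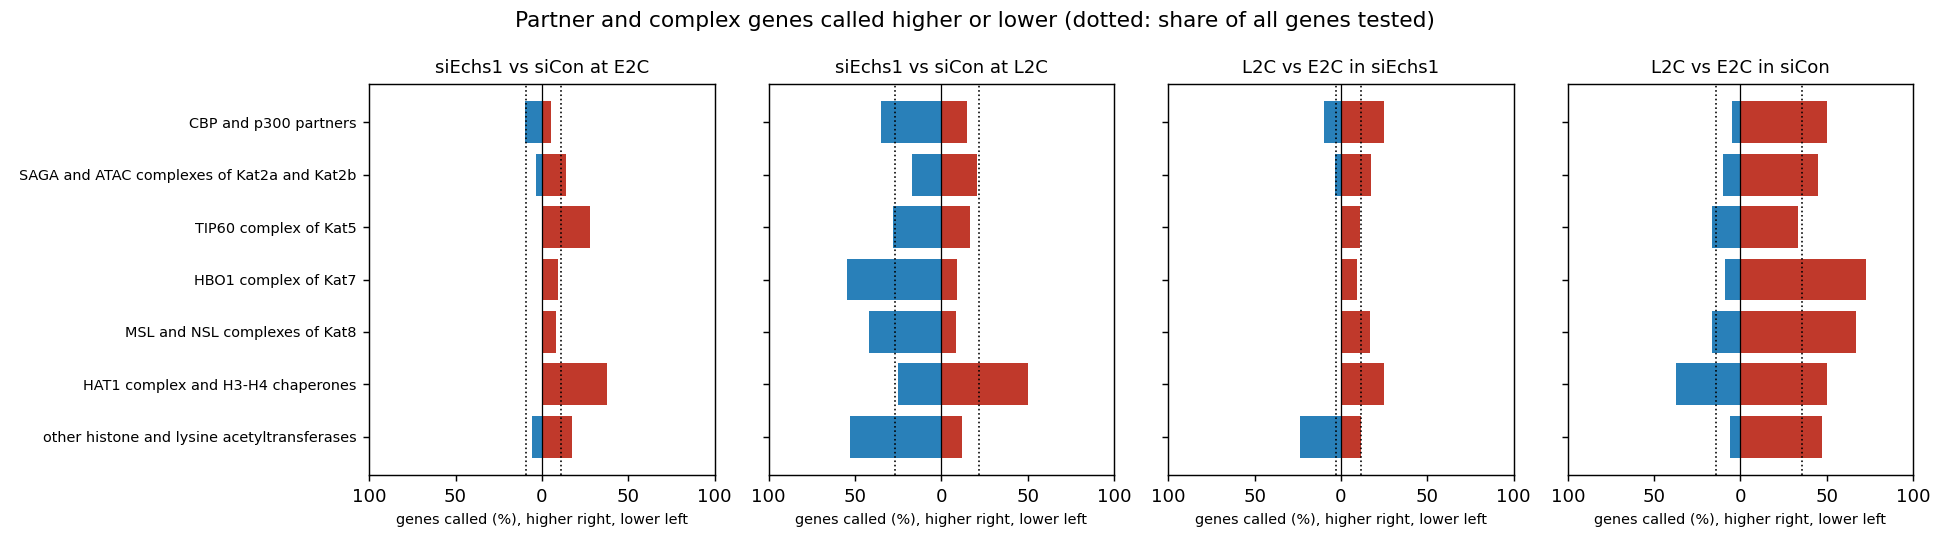
Share (%) of the tested genes of 7 partner and complex lists called higher (red, right) and lower (blue, left) in 4 siRNA and stage comparisons, with the shares over all genes tested dotted. With siEchs1 at L2C the HBO1 list has 6 of 11 genes lower, and between stages in siCon it has 8 of 11 higher; this list includes Ing1 and Ing2, and the TIP60 list Srcap.

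For the 7 genes called in a siRNA or stage comparison, the protein-coding genes nearest in pattern were listed. The measure was the root mean square difference of log2(FPKM + 1), centred per gene, over the 12 siRNA libraries, among 12632 genes. Nearest to Ep300 were Ncapg2, a condensin II subunit (0.30), and Zzz3, a subunit of ATAC (0.31). Zzz3 was at 10.1 to 13.9 FPKM in siEchs1 L2C and 42.0 to 45.3 FPKM in siCon L2C, and at 56.0 FPKM in replicate 3 of siEchs1 E2C. Nearest to Kat8 were Prmt7, an arginine methyltransferase (0.31), and Chid1 (0.33). Prmt7 was at 27.6 to 50.3 FPKM in siEchs1 L2C and 6.53 to 7.32 FPKM in siCon L2C. Nearest to Hat1 were Haus3, of the augmin complex (0.27), and Pcgf1, a polycomb subunit (0.30). Kat2a was nearest to Otud5 (0.20) and Lmna (0.21), Kat5 to Ptges2 (0.21) and Sost (0.30), Kat7 to Rrp8 (0.27) and Cdca5 (0.27), and Kat2b to Smg1 (0.25) and Zfp445 (0.26). The median distance to all other genes was 1.02 to 1.70. These libraries share the siRNA and stage contrasts above, and the distances describe patterns only.

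In the treatment experiment, crotonate, acetate and DMSO were compared at E2C. Crotonate is the salt of an unsaturated acid with a longer chain than acetate, and the labels gave no doses. None of the 8 genes was called for crotonate against DMSO or acetate against DMSO, and none for crotonate against acetate. Over all 13789 genes tested 0.529%, 0.0653% and 1.86% were called by limma, or 73, 9 and 257 genes, and 2254, 822 and 2694 had an unadjusted p under 0.05. The first and second comparisons share the DMSO libraries. With 2 libraries a group, intervals are wide, and a missed threshold does not show equal levels. Of the crotonate calls against DMSO 39.7% were higher, and 50.0% with quantile normalization.

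Crebbp was at 61.4 and 49.3 FPKM with crotonate, 17.0 and 28.4 FPKM with acetate, and 34.1 and 35.8 FPKM with DMSO. Both crotonate libraries were highest and both acetate libraries lowest. The log2 difference was 1.28 for crotonate against acetate (95% interval 0.50 to 2.07, adjusted p = 0.0923), 0.64 for crotonate against DMSO (-0.15 to 1.43, 0.401) and -0.64 for acetate against DMSO (-1.43 to 0.14, 0.784). Ep300 was at 4.75 and 8.62 FPKM with crotonate, 3.08 and 5.03 FPKM with acetate, and 5.68 and 7.59 FPKM with DMSO. The crotonate libraries spanned those of DMSO, with a difference of -0.03 (95% interval -0.98 to 0.93).

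Hat1 was at 9.36 and 6.22 FPKM with crotonate, 24.6 and 17.7 FPKM with acetate, and 16.5 and 14.7 FPKM with DMSO. It was lowest in both crotonate libraries and highest in both acetate libraries, the reverse of Crebbp. The log2 difference was -1.34 for crotonate against acetate (95% interval -2.15 to -0.52, adjusted p = 0.0910), -0.94 for crotonate against DMSO (-1.75 to -0.13, 0.239) and 0.40 for acetate against DMSO (-0.41 to 1.21, 0.796). Kat8 was at 12.8 and 18.3 FPKM with crotonate, 5.15 and 12.7 FPKM with acetate, and 13.8 and 11.8 FPKM with DMSO. The crotonate libraries were just above those of acetate (0.83, 95% interval -0.20 to 1.86, adjusted p = 0.363). Without replicate 2 of acetate the log2 differences between crotonate and acetate were 1.64 for Crebbp (adjusted p = 0.0310), -1.57 for Hat1 (0.0387) and 1.41 for Kat8 (0.0468). That fit has 1 acetate library, which is assumed to vary like the other groups, and it calls 1486 of all genes, against 257 with both libraries.

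Kat7 was at 24.9 and 25.5 FPKM with crotonate, 17.0 and 47.2 FPKM with acetate, and 47.5 and 46.4 FPKM with DMSO. The crotonate libraries were below those of DMSO, and the acetate libraries lay far apart. Against DMSO the log2 difference was -0.87 in crotonate (95% interval -1.93 to 0.18, adjusted p = 0.392) and -0.70 in acetate (-1.76 to 0.35, 0.784). The crotonate difference passed with the crotonate and DMSO libraries alone (adjusted p = 0.0398) and without replicate 1 (0.0401) or 2 (0.0438) of acetate, settings that called 1209, 1194 and 1080 of all genes, against 73. With replicate 1 as the lone acetate library, assumed to vary like the other groups, the acetate difference was -1.42 (0.0385), in a fit that called 911 of all genes, against 9. The acetate libraries also differed in mitochondrial RNA, at 20.6% and 11.9% of FPKM, against 13.4% and 12.2% in DMSO and 19.8% and 16.7% in crotonate. The part of this measure in the Kat7 values was not tested.

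The low genes gave little. Kat2a was at 0.73 and 1.18 FPKM with crotonate, 1.03 and 2.21 FPKM with acetate, and 1.55 and 2.24 FPKM with DMSO, with the crotonate libraries below those of DMSO (-0.57, 95% interval -1.44 to 0.30). Kat2b was at 0.58 and 1.21 FPKM with crotonate, 0.54 and 1.19 FPKM with acetate, and 1.22 and 1.43 FPKM with DMSO, all near 1 FPKM. Kat5 was at 3.53 and 5.81 FPKM with crotonate, 2.53 and 6.91 FPKM with acetate, and 5.62 and 6.45 FPKM with DMSO, which overlapped. Between crotonate and acetate the intervals were -1.27 to 0.48 for Kat2a, -0.82 to 0.87 for Kat2b, -1.01 to 1.16 for Kat5, -1.23 to 0.89 for Kat7 and -0.37 to 1.54 for Ep300. Of 104 partner and complex genes tested, 1 was called in these comparisons, for crotonate against DMSO (0.96%, against 0.529% of all genes). Cited1, a transcription cofactor that binds p300 and CBP, was at 9.39 and 10.1 FPKM in crotonate and 1.19 and 1.49 FPKM in DMSO, and rose by 2.20 (limma adjusted p = 0.0428). This call was lost when either crotonate library was left out.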

How the data were processed

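Trimming with cutadapt 1.16 and alignment with STAR to mm10 are named in the submitters' processing notes, and the labels give paired reads of 150 nt. Which program and annotation gave the expression values is not stated in the sources at hand. The authors deposited FPKM for 55335 genes per library, with no counts. After removal of symbols that occur more than once or had become dates, 55098 genes remained. The tests used log2(FPKM + 1) with a mean-variance trend and robust variances in limma 3.58.1 (R 4.3.3, two-sided), 1 fit of group means for the 12 siRNA libraries and another for the 6 treatment libraries. Genes tested were those at 1 FPKM or above in 3 or more siRNA libraries (17652) or 2 or more treatment libraries (13789). P-values were Benjamini-Hochberg adjusted over all genes tested, and a call is an adjusted p under 0.05. The script was tested on simulated data. Groups and replicate numbers came from the titles, which disagreed with the file headers for replicates 2 and 3 of siEchs1 L2C. The 8 genes, the partner lists and the markers were chosen with earlier results of these data known. Other genes named were Echs1, up to 2 called genes with the smallest adjusted p per list and comparison (mean of the higher group at least 5 FPKM) and the nearest 2 in pattern, and Kat6a, Kat6b and Kat14 at L2C were chosen after their values were seen. Alternatives were quantile normalization, values rescaled without mitochondrial and ribosomal RNA, no filter, no trend, a pseudocount of 0.1, a replicate block, the compared libraries alone and each library left out.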

Additional observations from a re-analysis of the deposited data

Results flagged for a closer look

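Kat7 was singled out because its siRNA effect differed between the stages by a test of the difference itself. The log2 fold change of siEchs1 over siCon at L2C minus that at E2C was -1.55 (limma adjusted p = 0.0376), with log2 fold changes of -0.23 at L2C and 1.32 at E2C. At E2C the 3 siEchs1 libraries were above the 3 siCon libraries, and at L2C the groups overlapped. The call held in 7 of 19 alternatives, with adjusted p from 0.0145 without replicate 3 of siEchs1 E2C to 0.104 without replicate 3 of siCon E2C. No group had enough libraries to look for a single outlying value.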

How the results depend on the processing

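No result changed its direction while called, and of 1103 alternative values of the 64 tests of single genes, 1036 stayed on their side of the threshold, 47 lost and 20 gained the call. Genes of the 8 called for siEchs1 at E2C were 2, and 1 with quantile normalization, no filter or either replicate block, and 0 with the E2C libraries alone, where 1807 genes in all were called. For the interaction the count of 1 became 0 with quantile normalization, no filter or either block, and the count over all genes became 1869 with no filter and 1794 with a pseudocount of 0.1. Between stages it was 5 of 8 in siCon with those libraries alone, and over all genes in siEchs1 1704 with no filter and 827 with those libraries alone. Crotonate against DMSO gave 9 genes with no filter, 41 with no trend, 31 with the pseudocount of 0.1 and 1209, with 1 of the 8, with those libraries alone. Acetate against DMSO gave 5 with quantile normalization, 0 with no filter and 4 alone. Crotonate against acetate gave 170 rescaled (71.2% of them higher, against 54.9%; 64.9% with quantile normalization), 9 with no filter, 151 with no trend, 162 with the pseudocount of 0.1 and 74 alone. The cause was not tested. The interaction uses all 12 libraries, so no fit of the compared libraries alone was made for it.

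Leaving out 1 library gave 1748 to 6496 calls for siEchs1 at E2C (0 to 5 of the 8), 6827 to 10240 at L2C (3 to 6), 1296 to 4094 for the interaction (0 to 3), 7036 to 10461 between stages in siCon (3 to 5) and 1121 to 3473 in siEchs1 (2 to 4). It gave 0 to 1194 for crotonate against DMSO (0 to 1), 1 to 911 for acetate against DMSO (0 to 1) and 0 to 1486 for crotonate against acetate (0 to 3).

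Replicate numbers were not taken to pair the samples, since not every pair had a correlation over 0.1 in its deviations from the group means: it was -0.10 to 0.11 for siRNA libraries, 1 of 18 pairs over 0.1 (-0.09 to 0.22 and 2 of 18 with the header numbers), and -0.10 to 0.16 for treatment libraries, 2 of 6 pairs over 0.1, both between crotonate and acetate. With 2 libraries a group the deviations mirror each other, so numbers 1 and 2 had to give the same value. The 6 treatment pairs are therefore not separate values. Between siCon L2C and siEchs1 L2C, numbers 1, 2 and 3 gave 0.11, -0.10 and -0.09 by the titles. By the file headers they gave 0.11, 0.09 and 0.22, all positive. With the replicate number as a block, the calls went to 3169 for siEchs1 at E2C, 8306 at L2C, 2455 for the interaction, 8585 and 2213 between stages in siCon and siEchs1, and 69, 12 and 173 for the treatments. The block ended the calls of Kat2a at E2C (adjusted p = 0.0617, and 0.0576 with the header numbers), Kat7 in the interaction (0.0670 and 0.0644) and Ep300 between stages in siEchs1 (0.0799 and 0.0662). Depth per library is not in the files, so the counting error behind Kat2b, the lowest gene in every group by its mean, is unknown.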
